A study of Homo sapiens with 15 samples.

Results

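miRNA-Seq libraries of U87-MG, an established line of human glioblastoma cells, are compared here: 3 from HIF1α/HIF2α-KO cells and 3 from HIF2α-KO cells, all cultured in 1% O2 for 24 h. They were taken by genotype and oxygen condition from the sample labels, and are 6 of the 15 libraries of the series. The remaining 9 libraries came from control cells in 21% O2, control cells in 1% O2 and HIF1α-KO cells in 1% O2, with 3 in each group. The comparison asks what the loss of HIF1α does to mature miRNAs in hypoxic cells that already lack HIF2α, and the same loss in cells that keep HIF2α (HIF1α-KO against control cells, both in 1% O2) is used to see where the response differs.

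Both knockouts were made with the CRISPR/Cas9 system, delivered as a lentiviral vector that carries Cas9 and a guide RNA, and the study lists 1 guide for each gene. The guides are shown because they define the genotypes, in lower case with the adjacent genomic PAM in capitals:
HIF1A guide: gaactcacattatgtggaagTGG
HIF2A guide: cttggagggtttcattgccgTGG
On GRCh38 with GENCODE v29, the HIF1A guide matched chr14:61720482-61720501, in the coding part of exon 2 of HIF1A (ENST00000337138.8) and on the strand opposite to the transcript. The HIF2A guide matched chr2:46356215-46356234, in the coding part of exon 3 of EPAS1, the gene of HIF2α, on the strand of the transcript ENST00000263734.4. The sources do not say that the cells were clones, and the labels call the control cells WT, with no non-targeting guide stated. miRNA-Seq does not read the mRNAs of HIF1A and EPAS1, which leaves the knockouts unchecked in these libraries. Nothing in the labels says whether the 3 replicates were separate cultures, so the p-values measure the spread between libraries, which may be technical.

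HIF1α and HIF2α are oxygen-regulated subunits that pair with ARNT and bind hypoxia response elements, short motifs with an RCGTG core, in the control regions of their target genes. miR-210 is the miRNA best known to follow HIF activity, and its reported targets include ISCU and other genes of mitochondrial respiration. A mature miRNA is cut from the 5′ or the 3′ side (arm) of a hairpin and finds its targets mainly through its seed, bases 2 to 8.

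In all, 10 miRNAs had an adjusted p under 0.05 in HIF1α/HIF2α-KO cells compared with HIF2α-KO cells, and 9 of these 10 had a mature sequence in RefSeq (GRCh38.p14). They are shown because the results turn on them, 5′ to 3′ with the seed in capitals:
miR-210-3p: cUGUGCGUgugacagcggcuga
miR-210-5p: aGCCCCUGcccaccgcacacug
miR-2277-5p: aGCGCGGGcugagcgcugccaguc
miR-449c-5p: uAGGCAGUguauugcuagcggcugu
miR-125b-5p: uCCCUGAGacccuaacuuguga
miR-767-5p: uGCACCAUgguugucugagcaug
miR-605-5p: uAAAUCCCauggugccuucuccu
miR-30c-2-3p: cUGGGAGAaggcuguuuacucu
miR-582-3p: uAACUGGUugaacaacugaacc
The tenth is miR-10395-5p. No seed was shared among the 9. MIR210 lies at chr11:568089-568198 on the minus strand, in an intron of the long non-coding RNA gene MIR210HG. MIR449C (chr5:55172262-55172353, minus strand) lies in an intron of CDC20B, MIR582 (chr5:59703606-59703703, minus strand) in an intron of PDE4D, MIR605 (chr10:51299573-51299655, plus strand) in an intron of PRKG1, and MIR767 (chrX:152393421-152393529, minus strand) in an intron of GABRA3. MIR30C2 (chr6:71376960-71377031, minus strand) lies in introns of LINC00472. The mature miR-2277-5p (chr5:93620748-93620771, minus strand) overlaps exons of FAM172A in 2 annotated transcripts. miR-125b-5p has the same sequence at 2 hairpins, MIR125B1 in MIR100HG on chromosome 11 and MIR125B2 in MIR99AHG on chromosome 21, which its count cannot separate.

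Total counts were 11534878 to 13460641 in the HIF2α-KO libraries and 11662952 to 15366931 in the HIF1α/HIF2α-KO libraries. Values are given as normalized read counts (CPM), scaled by the TMM method of edgeR. The smallest detectable amount, taken as 3 counts, came to at most 0.260 CPM of total counts (counting error only). The summed marker levels below are also CPM of total counts, without the TMM factors. Of 1707 mature miRNAs in the files, 562 passed a filter on low counts and were tested. Markers of glioblastoma lines (miR-21-5p, miR-221-3p, miR-222-3p, miR-10b-5p and miR-9-5p) summed to 246682 to 293509 CPM in the 6 libraries, and the neuronal miR-124-3p was at 0 in all 6. Muscle miRNAs (3 markers, mainly miR-1-3p) summed to 2.38 to 17.0 CPM in HIF2α-KO and 20.9 to 47.2 CPM in HIF1α/HIF2α-KO libraries, without overlap. With TMM scaling, miR-1-3p was at 1.10, 15.4 and 14.2 against 18.6, 30.2 and 41.8 CPM (log2 fold change 1.56, adjusted p = 0.371, edgeR). Summed levels overlapped between the groups for epithelial (49.3 to 98.4 against 39.4 to 64.3 CPM), endothelial (3.90 to 33.9 against 6.95 to 17.0), blood (4.33 to 15.2 against 5.66 to 9.24) and smooth muscle and fibroblast markers (148 to 394 against 213 to 322). All 6 epithelial markers tested had a log2 fold change below 0 (297 of 562 over all miRNAs tested), with a median of -0.79. So did both endothelial markers (median -1.13) and all 3 of smooth muscle and fibroblasts (median -0.43). No endothelial or smooth muscle and fibroblast marker had an unadjusted p under 0.05. Of the 3 blood markers tested, 2 were below 0 and 1 above. The 1 above, miR-142-3p, had a log2 fold change of 0.98 without overlap (unadjusted p under 0.05, edgeR, as in 7.30% of all miRNAs, higher). The part of these other markers in the results was not tested. The libraries come from cultures of an established line, and the source of the reads of these markers was not tested either. The endothelial miR-126 was low in 1 library of each group (HIF2α-KO replicate 2 and HIF1α/HIF2α-KO replicate 3).

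The loss of HIF1α in HIF2α-KO cells lowered 7 miRNAs (1.25% of those tested) and raised 3 (0.534%), in all 1.78% of those tested, by the edgeR quasi-likelihood test at an adjusted p below 0.05. miR-210-3p, miR-10395-5p, miR-210-5p, miR-2277-5p, miR-449c-5p, miR-767-5p and miR-125b-5p fell, whereas miR-605-5p, miR-582-3p and miR-30c-2-3p rose. The 2 groups of libraries did not overlap for any of these 10, beside 20.5% of all miRNAs tested (11.7% with all 3 HIF1α/HIF2α-KO libraries lower and 8.72% with all 3 higher). At an unadjusted p under 0.05, 112 miRNAs (19.9%) differed, 71 lower (12.6%) and 41 higher (7.30%). Of these, 30 (5.34%) also differed at least 2-fold, with 24 lower (4.27%) and 6 higher (1.07%). The balance of directions depended on the scaling: with total counts in place of TMM, the median log2 fold change of all miRNAs moved up by 0.20, and 11 miRNAs were higher and 4 lower at an adjusted p under 0.05. With only the 6 libraries compared, 2 miRNAs passed, miR-210-3p and miR-210-5p, and fits that left out a library gave 2 (without HIF1α/HIF2α-KO replicate 1) to 17 (without HIF1α/HIF2α-KO replicate 2). The plot of change against level places the 10 among all miRNAs.

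**Figure D1:**
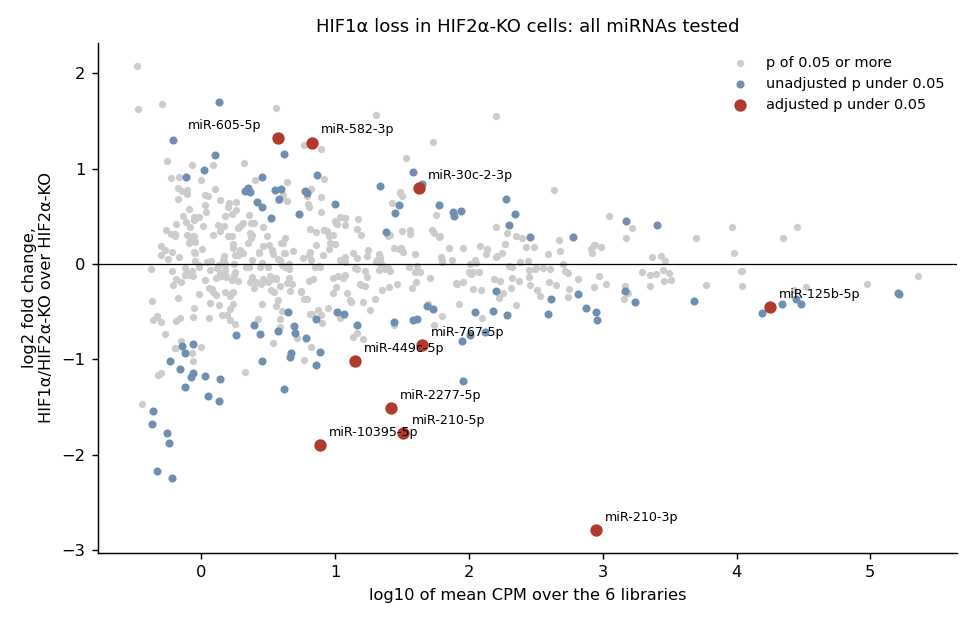
Log2 fold change of HIF1α/HIF2α-KO over HIF2α-KO cells (vertical axis) against the log10 of the mean CPM over the 6 libraries (horizontal axis) for all miRNAs tested; red points have an adjusted p under 0.05 and blue points an unadjusted p under 0.05. miR-210-3p has the lowest log2 fold change, -2.79, and the 10 red points spread from low to high levels.

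The MIR210 hairpin held the miRNA with the largest change. miR-210-3p, its abundant arm, was at 1443, 1996 and 1210.5 CPM in the 3 HIF2α-KO libraries, and at 181, 146 and 348 CPM in the 3 HIF1α/HIF2α-KO libraries. All 3 libraries without HIF1α lay far below the lowest of those with it. The means were 1549.8 ± 404 and 225 ± 108 (SD, n = 3 each), a 6.89-fold lower level (log2 fold change -2.79 ± 0.32 SE, adjusted p = 0.000381, edgeR). The two-sided exact permutation p of the CPM was 0.1, below which a design of 3 against 3 cannot go.

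miR-210-5p, the other arm, was at 43.5, 50.1 and 56.2 CPM in HIF2α-KO libraries and at 16.9, 10.7 and 16.1 CPM in HIF1α/HIF2α-KO libraries. The groups again did not overlap. The level fell 3.43-fold (log2 fold change -1.78 ± 0.30 SE, adjusted p = 0.0101, edgeR). The 3p arm therefore had the larger fold, and the count of miR-210-3p per count of miR-210-5p was 33.1, 39.9 and 21.5 in HIF2α-KO libraries and 10.7, 13.6 and 21.6 in HIF1α/HIF2α-KO libraries. The ratios overlapped (31.5 ± 9.28 against 15.3 ± 5.67, SD, n = 3, two-sided exact permutation test p = 0.2).

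Across the series, miR-210-3p was at 1188 ± 151 CPM in control cells in 21% O2 and at 1042 ± 109 CPM in control cells in 1% O2 (SD, n = 3 each). In HIF1α-KO cells it was at 309 ± 110 CPM, close to its level in HIF1α/HIF2α-KO cells. The level thus separated the groups with a HIF1α knockout from those without one, as the plot of both arms shows. In control cells the mean was not higher in 1% O2 than in 21% O2.

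**Figure D2:**
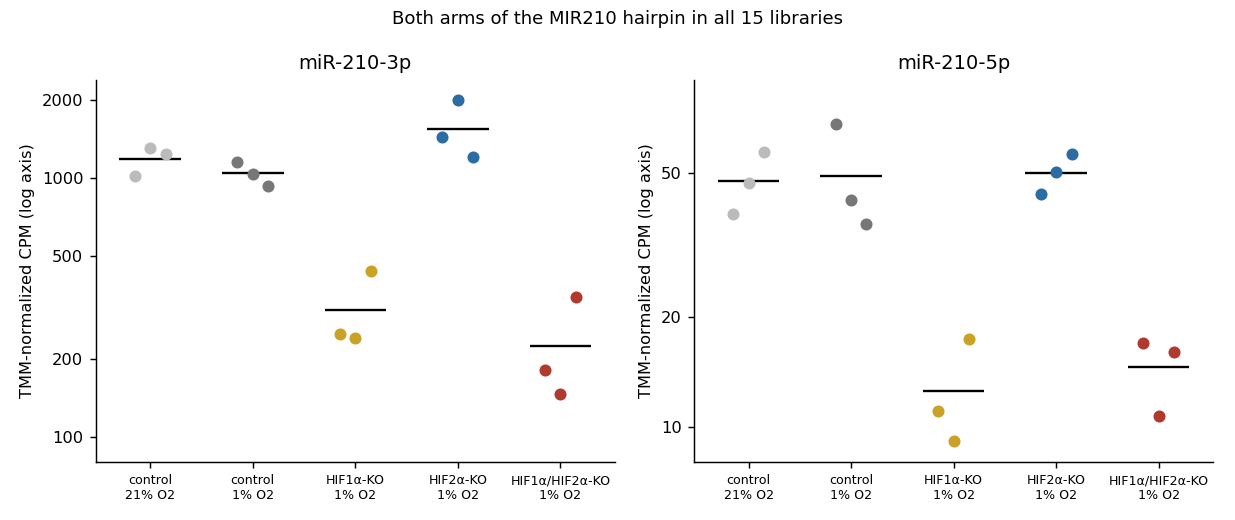
TMM-normalized CPM (log axes) of miR-210-3p (left) and miR-210-5p (right) in the 15 libraries of the 5 groups; points are libraries and black lines are group means. The 3 HIF1α/HIF2α-KO libraries sit at 146 to 348 CPM for miR-210-3p, and the 3 HIF2α-KO libraries at 1210.5 to 1996 CPM.

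The window from 250 bases before to 50 bases after the start of MIR210HG, the host gene of MIR210, is shown because miR-210 is a classical HIF target (RefSeq, GRCh38.p14, chr11:568408-568707, minus strand, 5′ to 3′). Cores of the hypoxia response element, ACGTG and GCGTG, were searched on both strands and are in capitals:
MIR210HG promoter: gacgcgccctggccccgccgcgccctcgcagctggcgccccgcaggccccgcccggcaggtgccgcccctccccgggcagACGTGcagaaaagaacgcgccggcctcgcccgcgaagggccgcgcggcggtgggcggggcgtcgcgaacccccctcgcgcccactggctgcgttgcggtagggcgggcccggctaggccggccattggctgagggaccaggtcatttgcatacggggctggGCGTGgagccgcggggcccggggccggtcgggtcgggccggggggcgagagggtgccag
It holds 1 ACGTG, which begins 170 bases before the start, and 1 GCGTG, which begins 9 bases before it. Of 35116 promoter windows of the same length, 21.41% hold ACGTG, 36.54% hold GCGTG and 9.51% hold both, so the letters alone are common. Among the hosts of other called miRNAs, at least 1 of these cores was found in 4 of 8 windows of PDE4D, 1 of 2 of PRKG1 and 1 of 6 of MIR100HG, each window standing for a separate start. Over all windows, 48.45% hold at least 1 of them. The windows of CDC20B and LINC00472 (1 each) and all 6 of MIR99AHG held neither. No window of FAM172A or GABRA3 was among those searched. A match or its absence describes these letters only.

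Apart from miR-210, 5 miRNAs fell. miR-10395-5p was at 9.39, 16.1 and 10.7 CPM in HIF2α-KO libraries and at 3.15, 4.32 and 2.21 CPM in HIF1α/HIF2α-KO libraries, and the groups did not overlap. Its log2 fold change was -1.90 ± 0.36 SE (adjusted p = 0.0148, edgeR). The HIF2α-KO libraries stood apart from the other groups too, since its mean was 5.30 ± 2.02 CPM in control cells in 1% O2 and 4.83 ± 1.61 in HIF1α-KO cells (SD, n = 3).

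miR-2277-5p was at 34.9, 56.5 and 24.4 CPM in HIF2α-KO libraries and at 11.8, 12.7 and 16.1 CPM in HIF1α/HIF2α-KO libraries. HIF2α-KO replicate 2 was the highest, and every HIF1α/HIF2α-KO library was below every HIF2α-KO library (log2 fold change -1.51 ± 0.27 SE, adjusted p = 0.0130, edgeR). The other arm, miR-2277-3p, had a log2 fold change of -1.18 ± 0.37 SE with an adjusted p of 0.0987 (edgeR), at means of 1.47 and 0.656 CPM, and its libraries did not overlap either.

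miR-449c-5p belongs to the miR-34/449 group, known for restraining the cell cycle and for multiciliated cells. It was at 22.2, 19.4 and 15.2 CPM in HIF2α-KO libraries and at 9.82, 10.0 and 8.28 CPM in HIF1α/HIF2α-KO libraries, a clear gap (log2 fold change -1.02 ± 0.19 SE, adjusted p = 0.0148, edgeR). The call was lost with total counts (adjusted p = 0.050001) and with no filter on low counts (adjusted p = 0.0682). Its neighbour miR-449a, 1727 bases away in the same intron of CDC20B, had a log2 fold change of -1.02 ± 0.28 SE with an adjusted p of 0.0790 (edgeR) at 1.67 to 4.31 CPM. Reads of these near relatives can be split by the counting, which makes both values less certain.

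miR-767-5p, a miRNA of the cluster of miR-105 and miR-767 in GABRA3 that is known from germ cells and tumours and represses TET enzymes, was at 64.9, 60.3 and 46.8 CPM in HIF2α-KO libraries. In HIF1α/HIF2α-KO libraries it was at 34.1, 37.8 and 23.8 CPM, all below the lowest HIF2α-KO library (log2 fold change -0.85 ± 0.20 SE, adjusted p = 0.0459, edgeR). Replicate 3 was the lowest in both groups. The other arm, miR-767-3p, had a log2 fold change of -0.16 ± 0.25 SE with an adjusted p of 0.763 (edgeR), and its libraries overlapped. The call of miR-767-5p was lost with DESeq2 size factors, total counts, no filter, a replicate block and without miR-21-5p (adjusted p of 0.0508 to 0.127).

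miR-125b-5p, a relative of lin-4 that is abundant in neural cells, was at 20589.5, 19932 and 20776 CPM in HIF2α-KO libraries and at 15027, 13128 and 16659 CPM in HIF1α/HIF2α-KO libraries. The HIF2α-KO libraries lay close together and above the others, with a log2 fold change of -0.45 ± 0.10 SE (adjusted p = 0.0291, edgeR). This call was lost with total counts (log2 fold change -0.26, adjusted p = 0.148), limma (0.443), no filter (0.357), a replicate block (0.0703) and without miR-21-5p (0.0570). The arms opposite to it, miR-125b-1-3p and miR-125b-2-3p, had log2 fold changes of 0.16 and -0.52 with adjusted p of 0.684 and 0.180.

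Of the 10, 3 miRNAs rose. miR-605-5p, reported to act in the p53 network through MDM2, was at 1.57, 2.66 and 2.28 CPM in HIF2α-KO libraries (20 to 28 counts) and at 6.93, 3.79 and 5.41 CPM in HIF1α/HIF2α-KO libraries (50 to 110 counts). The groups did not overlap (log2 fold change 1.32 ± 0.26 SE, adjusted p = 0.0155, edgeR). The other arm, miR-605-3p, had a log2 fold change of 0.88 ± 0.46 SE with an adjusted p of 0.335.

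miR-582-3p was at 3.68, 4.19 and 3.89 CPM in HIF2α-KO libraries (41 to 47 counts) and at 7.87, 8.49 and 12.1 CPM in HIF1α/HIF2α-KO libraries (112 to 148 counts). The HIF2α-KO libraries were nearly level, and all 3 others were higher (log2 fold change 1.27 ± 0.30 SE, adjusted p = 0.0472, edgeR). miR-582-5p from the same hairpin had a log2 fold change of 0.91 ± 0.32 SE with an adjusted p of 0.127, again without overlap. The call of miR-582-3p was lost with a replicate block (adjusted p = 0.0769) and without miR-21-5p (adjusted p = 0.0530).

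miR-30c-2-3p is the minor arm of a hairpin of the miR-30 family and is reported to repress XBP1. It was at 30.1, 29.8 and 32.7 CPM in HIF2α-KO libraries and at 50.6, 61.1 and 49.2 CPM in HIF1α/HIF2α-KO libraries, well separated (log2 fold change 0.80 ± 0.16 SE, adjusted p = 0.0161, edgeR). The call was lost with no filter (adjusted p = 0.0563). The abundant miR-30c-5p had a log2 fold change of 0.07 ± 0.16 SE. miR-30c-1-3p, which shares the seed UGGGAGA, had one of -0.13 ± 0.17 SE (adjusted p = 0.861 and 0.714).

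**Figure D3:**
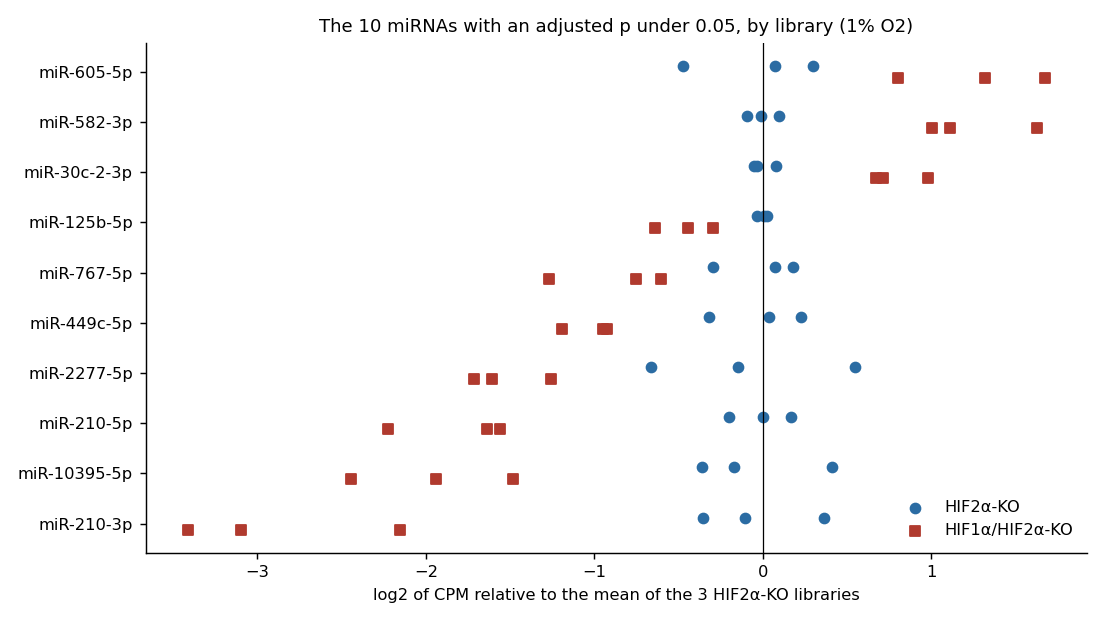
Log2 of the CPM of each library relative to the mean of the 3 HIF2α-KO libraries (horizontal axis) for the 10 miRNAs with an adjusted p under 0.05; circles are HIF2α-KO and squares HIF1α/HIF2α-KO libraries. In each row the squares lie to one side of the circles without overlap, to the left for 7 miRNAs and to the right for 3.

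The 10 calls did not rest equally on each library. Both arms of MIR210 passed in all 6 fits that left out 1 library, with log2 fold changes of -3.25 to -2.51 for miR-210-3p and -1.89 to -1.55 for miR-210-5p. Without HIF1α/HIF2α-KO replicate 1 the other 8 were lost (adjusted p of 0.0643 to 0.135), and this was the one such fit in which miR-2277-5p was. Without HIF1α/HIF2α-KO replicate 3, miR-449c-5p, miR-10395-5p, miR-605-5p, miR-767-5p and miR-582-3p were lost (0.0547 to 0.148), and without replicate 2 of that group miR-125b-5p (0.117). Without HIF2α-KO replicate 1, miR-449c-5p, miR-605-5p, miR-30c-2-3p, miR-125b-5p, miR-767-5p and miR-582-3p were lost (0.0692 to 0.146). Without HIF2α-KO replicate 2 the same set was, with miR-10395-5p in place of miR-605-5p (0.0701 to 0.121), and without HIF2α-KO replicate 3 miR-125b-5p and miR-582-3p (0.0735 and 0.0572). None of the 10 changed direction in any of these fits.

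The 10 miRNAs of next lowest p did not pass, with adjusted p of 0.0582 to 0.0790, and are given as values. Among them, 7 had lower means in HIF1α/HIF2α-KO cells. miR-424-3p was at 185, 183 and 119 CPM in HIF2α-KO and at 94.3, 87.6 and 116 CPM in HIF1α/HIF2α-KO libraries, so that HIF2α-KO replicate 3 nearly met the other group (log2 fold change -0.71 ± 0.17 SE). miR-221-3p and miR-222-3p, which share the seed GCUACAU and are known to repress the cell cycle inhibitor p27, had log2 fold changes of -0.42 ± 0.12 and -0.52 ± 0.14 SE, and the libraries of miR-222-3p overlapped. let-7i-5p had a value of -0.42, miR-181d-5p of -0.49, miR-200c-3p, one of the epithelial markers, of -0.58 and miR-449a of -1.02.

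The other 3 had higher means. miR-192-5p (174, 196 and 172 against 243, 248 and 292 CPM) and miR-215-5p (66.5, 67.8 and 58.1 against 85.6, 92.1 and 95.7 CPM) come from different chromosomes, share the seed UGACCUA and are known p53-induced miRNAs. Their log2 fold changes were 0.53 ± 0.13 and 0.51 ± 0.14 SE, and neither overlapped between groups. miR-194-5p, a neighbour of both, had a value of 0.03 ± 0.20 SE (adjusted p = 0.954, edgeR). miR-204-5p, hosted by TRPM3, was at 31.0, 26.5 and 38.8 against 50.8, 56.7 and 65.3 CPM (log2 fold change 0.84 ± 0.23 SE). miR-211-5p, which shares its seed UCCCUUU, had a log2 fold change of 0.82 ± 0.24 SE with an adjusted p of 0.0802. Near-identical sequences can share reads, so such a pair may not be 2 separate measurements.

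The same loss of HIF1α in cells that keep HIF2α lowered 7 miRNAs (1.25%) and raised 0, with 67 (11.9%) at an unadjusted p under 0.05, 35 lower (6.23%) and 32 higher (5.69%). The 2 comparisons share no library. Of the 10 miRNAs called without HIF2α, 2 were also called with it, miR-210-3p and miR-210-5p, and all 10 had the same sign. The share with the same sign over all miRNAs was not counted. For miR-605-5p and miR-10395-5p the value with HIF2α was close to no change, so a shared sign is not a shared effect. The difference between the effects, tested as an interaction in edgeR, was called for 0 miRNAs, with 59 (10.5%) at an unadjusted p under 0.05. limma and DESeq2 also called 0, and the fit without a filter on low counts called 5.

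miR-210-3p stood at -2.79 ± 0.32 SE (log2 fold change) without HIF2α and -1.76 ± 0.31 with it, a difference of -1.03 ± 0.43 SE (unadjusted p = 0.0316, adjusted p = 0.439, edgeR). For miR-210-5p it was -1.78 without and -1.96 with HIF2α, a difference of 0.19 ± 0.41 SE (unadjusted p = 0.654). Neither difference passed the adjusted threshold.

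The 10 were chosen on the effect without HIF2α, which is one side of the interaction, so small interaction p among them are favoured by the choice and are given as a description. The smallest was that of miR-605-5p, with a log2 fold change of 1.32 without and 0.01 with HIF2α (unadjusted p = 0.00275, adjusted p = 0.378, edgeR). miR-10395-5p went from -1.90 to -0.13 (unadjusted p = 0.00352) and miR-2277-5p from -1.51 to -0.38 (unadjusted p = 0.00930), with the same adjusted p of 0.378 for both. For miR-767-5p (-0.85 and -0.70, unadjusted p = 0.603) and miR-582-3p (1.27 and 1.01, unadjusted p = 0.541) the values were near each other. The other arm of the first, miR-767-3p, is not among the 10 and was called with HIF2α. It was at -0.16 without and -1.29 with HIF2α (unadjusted p = 0.00593, adjusted p = 0.378, edgeR). The plot of the effects sets all 20 miRNAs side by side.

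**Figure D4:**
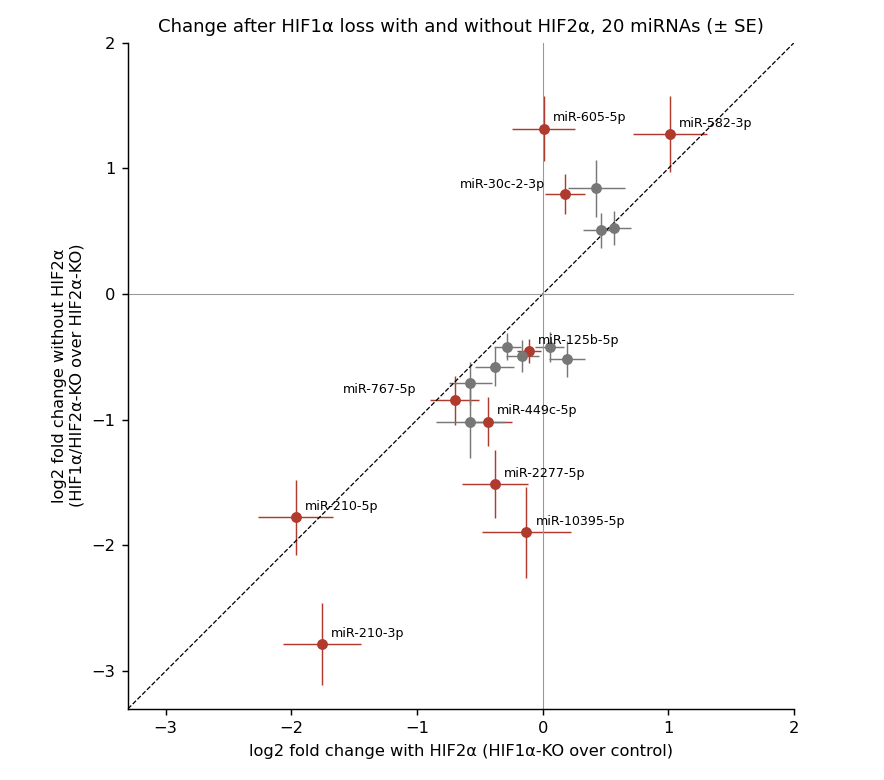
Log2 fold change after HIF1α loss in HIF2α-KO cells (vertical axis) against that in cells with HIF2α (horizontal axis) for the 20 miRNAs named, with SE bars; red points are the 10 with an adjusted p under 0.05 without HIF2α and grey points the others, and the dashed line marks equal effects. Both arms of MIR210 are far below 0 on both axes, whereas miR-605-5p, at 1.32 and 0.01, lies on the vertical zero line.

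The lists of related miRNAs were described by counts and medians, beside a median log2 fold change of -0.03 and 297 of 562 values below 0 over all miRNAs tested. The imprinted clusters at 14q32, expressed from the maternal chromosome and known from embryonic and neural tissue, had the lowest median of the lists apart from MIR210 itself and the endothelial markers. Of 74 members in the files, 24 passed the filter, and all 24 had a log2 fold change below 0, with a median of -0.96. The 24 include neighbours and both arms of some hairpins, so they do not count as separate measurements. miR-1185-1-3p and miR-1185-2-3p had the same level in every library compared. None passed the adjusted threshold, 13 had an unadjusted p under 0.05 (all lower, where 12.6% of all miRNAs were), and 11 did not overlap between the groups (11.7% of all miRNAs). The 13 became 5 of 26 without HIF1α/HIF2α-KO replicate 1, 8 with total counts and 5 of 11 with only the libraries compared.

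These miRNAs were scarce. Their summed level was 75.7, 71.2 and 83.6 CPM in HIF2α-KO libraries and 38.7, 49.9 and 53.6 CPM in HIF1α/HIF2α-KO libraries, so that the sums did not overlap and their mean was 1.62-fold lower. Of the 24, 13 had means under 1 CPM in both groups, and 9 had at least 1 library with 3 counts or fewer. miR-654-3p, among the 5 with a mean over 5 CPM, was at 10.8, 8.28 and 10.2 CPM in HIF2α-KO libraries and at 3.02, 6.06 and 5.0 CPM in HIF1α/HIF2α-KO libraries, without overlap (log2 fold change -1.06 ± 0.34 SE, adjusted p = 0.101, edgeR). miR-379-3p had the lowest p of the list (unadjusted p = 0.00350, adjusted p = 0.0802) on counts of only 7, 7 and 8 against 3, 4 and 2. miR-654-3p was chosen after its values were seen.

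The median of the 14q32 list was -0.17 with HIF2α. With total counts it was -0.75, and 22 of the 24 were below 0. With limma on quantile-normalized log2(CPM + 1) the median was -0.44, with 23 of 24 below 0. Fits that left out 1 library gave medians of -1.08 to -0.75, and 1 member passed the adjusted threshold without HIF1α/HIF2α-KO replicate 2. With no filter 50 of the 74 members were below 0, at a median of -0.60, and 2 passed. The clusters were also uneven, since miR-127-3p (log2 fold change -0.17 ± 0.67 SE) and miR-369-3p (-0.05 ± 1.00 SE) varied widely between libraries.

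The miR-378 family, named for a miRNA in the metabolic gene PPARGC1B, leaned the other way. All 9 members tested had a log2 fold change above 0 (265 of 562 over all), with a median of 0.48, and 6 had an unadjusted p under 0.05, higher (7.30% of all miRNAs). None passed the adjusted threshold. The member of lowest p, miR-378f, was at 8.22, 9.80 and 5.51 CPM in HIF2α-KO libraries and at 12.03, 14.2 and 10.0 CPM in HIF1α/HIF2α-KO libraries, just without overlap (log2 fold change 0.62 ± 0.21 SE, adjusted p = 0.110, edgeR). The family share most of their sequence, so a read can match several members and they do not count as separate measurements. The 6 became 3 without HIF1α/HIF2α-KO replicate 1, 3 with DESeq2 and 2 of 8 with only the libraries compared. All 9 stayed above 0 with total counts (median 0.68, with 1 past the adjusted threshold), and the median with HIF2α was 0.32.

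In the cluster of miR-532 and miR-502, hosted by the chloride channel gene CLCN5, 13 of 14 members were above 0 with a median of 0.33 (0.43 with HIF2α). Of the 14, 3 had an unadjusted p under 0.05, higher (7.30% of all miRNAs), and none passed the adjusted threshold. miR-500a-5p and miR-500b-5p had nearly the same level in every library compared, so the members do not all count as separate measurements. miR-188-5p had the lowest p, with a log2 fold change of 1.14 ± 0.33 SE (adjusted p = 0.0802) on 13, 8 and 6 against 24, 28 and 20 counts. The median was 0.08 without HIF1α/HIF2α-KO replicate 3, 0.16 without HIF2α-KO replicate 1, 0.55 without HIF2α-KO replicate 2 and 0.53 with total counts, which put 2 members past the adjusted threshold.

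The cluster of miR-105 and miR-767 held miR-767-5p as its called member, and its 4 members had a median of -0.43, which was -0.24 with total counts, where none passed. With HIF2α the median was -1.20, and miR-105-5p, which was called there, had a log2 fold change of -1.10 with and -0.45 ± 0.16 SE without HIF2α (adjusted p = 0.127 without HIF2α, edgeR). The difference for miR-105-5p was 0.66 ± 0.22 SE (unadjusted p = 0.0106, adjusted p = 0.378). miR-105-3p (-1.61 with and -0.42 without HIF2α) and miR-767-3p (-1.29 and -0.16) were also called with HIF2α, whereas miR-767-5p was not. Of the 4 members, 3 had an unadjusted interaction p under 0.05 (10.5% of all miRNAs), and none passed the adjusted threshold. A call on the effect with HIF2α favours a small interaction p.

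The 13 other miRNAs reported to respond to hypoxia had a median of -0.11. Of these, 1 had an unadjusted p under 0.05, lower (12.6% of all miRNAs): miR-181a-5p (log2 fold change -0.40 ± 0.12 SE, adjusted p = 0.0869, edgeR). With total counts the median was 0.09, and without HIF1α/HIF2α-KO replicate 2 it was -0.01. Apart from miR-210, no miRNA of the hypoxia lists passed the adjusted threshold in edgeR with TMM, and 1 did with limma.

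The remaining lists had medians between -0.22 and 0.36. The let-7 guide strands had a median of -0.22 (9 members, let-7i-5p with the lowest p) and the miR-17-92 cluster with its paralogs one of -0.16 (18 members, miR-93-5p with the lowest p), and with total counts these were -0.03 and 0.04. Without HIF2α-KO replicate 1 the let-7 median was -0.11, and without HIF2α-KO replicate 2 that of miR-17-92 was 0.04. The miR-29 family had a median of 0.36 (7 members), the miR-30 family 0.07 (11 members, 1 called) and the p53-linked group of miR-34, miR-192, miR-194 and miR-215 0.17 (8 members). The miR-29 median was 0.08 with GC content as an offset, 0.17 without HIF1α/HIF2α-KO replicate 3 and 0.56 with total counts. That of the miR-30 family ran from 0.03 without HIF1α/HIF2α-KO replicate 3 to 0.18 without replicate 1 of that group, and was 0.27 with total counts. The p53-linked group ran from 0.01 without HIF2α-KO replicate 1 to 0.30 without HIF1α/HIF2α-KO replicate 2, and was 0.36 with total counts, with 2 members past the adjusted threshold. Of the 8 p53-linked members, 6 were above 0 and 2 below, from -0.50 to 0.53. At an unadjusted p under 0.05, 2 were higher (7.30% of all miRNAs) and 1 lower (12.6%). miR-34a-5p had a log2 fold change of -0.34 ± 0.23 SE. For the miR-29 family the member of lowest p, miR-29a-5p, was at 1.88, 2.09 and 3.80 against 5.10, 5.15 and 6.97 CPM (log2 fold change 1.15 ± 0.38 SE, adjusted p = 0.108).

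Base composition moved with the change in this comparison. Across the 513 tested miRNAs with a mature sequence, the Spearman correlation of GC content with the log2 fold change was -0.28 without HIF2α and 0.01 with it, as a description over miRNAs that share the same libraries. GC content was 63.6% in miR-210-3p, 72.7% in miR-210-5p and 75.0% in miR-2277-5p, beside a median of 47.8%. With GC content as an offset, an alternative added after the data had been seen, the log2 fold changes of these 3 were -2.67, -1.56 and -1.21, and all 3 passed. In that fit 15 miRNAs passed, including 9 of the 10, and miR-125b-5p was lost (adjusted p = 0.0591, edgeR).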

How the data were processed

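The authors cultured U87-MG cells in 1% or 21% O2 for 24 h, extracted total RNA with Trizol and the miRNeasy kit, and deposited whole-number raw read counts of mature miRNAs, 1 column per library, not normalized. The submitters' processing notes name HISAT2, StringTie and DESeq2 without roles. The genome build and read filters are not given in the sources used here, and the quantile normalization named in the methods is not part of the deposited counts.

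Samples were grouped by the genotype and treatment labels. The analysis used edgeR 4.0.16 (R 4.3.3) with TMM factors, filterByExpr, a mean for each of the 5 groups over all 15 libraries, quasi-likelihood tests of contrasts and Benjamini-Hochberg adjustment over the 562 miRNAs tested, at a threshold of 0.05. The SE is the log2 fold change divided by the square root of F. The fit was also run on simulated counts with changes set beforehand. These were larger than most of the changes called here, so the run does not test the calls. Named miRNAs were both arms of MIR210, those with an adjusted p under 0.05 and libraries that did not overlap (12 in each direction at most), those of next lowest p up to 20, and from each list its called members and the one of lowest p. The comparison and the lists were chosen with earlier results of these data known.

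Alternatives were DESeq2 size factors, total counts, limma 3.58.1 on quantile-normalized log2(CPM + 1), DESeq2 1.42.0, no filter, a filter of 10 counts in each of the compared libraries, a fit of the compared libraries alone, a replicate block, miR-21-5p left out, libraries of low miR-126 as a covariate, a fold change of at least 1.2 and each library left out. GC content of the mature sequence (513 of 562 miRNAs, 91.3%) as a loess offset (span 0.75) was added after seeing the data. Replicates of a group were not copies of each other.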

Additional observations from a re-analysis of the deposited data

How the results depend on the processing

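Both arms of MIR210 passed under every alternative run. Other called miRNAs were lost in some, and none reversed. The 10 calls became 19 with DESeq2, 21 with no filter on low counts and 2 with only the libraries compared, and 2 to 17 when a library was left out. The lowest counts came without HIF1α/HIF2α-KO replicate 1 (2), HIF2α-KO replicate 1 or 2 (4 each) and HIF1α/HIF2α-KO replicate 3 (5), and the highest without HIF1α/HIF2α-KO replicate 2 (17). With a replicate block 7 passed. The replicate numbers were not taken as pairs, since the deviations of libraries with the same number correlated at 0.34, -0.32 and -0.10, and not every library correlated best with its own number. The 30 miRNAs that differed at least 2-fold at an unadjusted p under 0.05 became 10 with limma, 77 with no filter, 12 with a filter of 10 counts in each compared library, 17 with only the libraries compared and 112 at a fold change of 1.2, and 25 to 60 when a library was left out (60 without HIF2α-KO replicate 3). The interaction gave 5 with no filter, and 0 in every other setting run. HIF1α loss with HIF2α gave 12 in place of 7 with DESeq2, 0 (67 at an unadjusted p under 0.05) with only the libraries compared, and 2 to 6 when a library was left out. The cause of these changes was not tested. Fits that leave out libraries or groups hold fewer samples, and the number of calls fell in some of them and rose in others. With TMM 30% of the calls were higher, and with total counts 73.3%. Counts were few for miRNAs near 0.260 CPM. Among the 24 tested members of the 14q32 clusters, 9 had at least 1 library with 3 counts or fewer.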

Other observations

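The 14q32 clusters lie on the chromosome of HIF1A, and their values are set beside those of the other miRNAs of chromosome 14, which were looked at after the list values had been seen. The 24 members tested span chr14:100883035-101065661 (GRCh38.p14), at least 39.16 Mb from the match of the HIF1A guide. The 7 other miRNAs tested on that chromosome had a median log2 fold change of -0.05, with 4 of 7 below 0. The nearest to the guide, miR-625-3p and miR-625-5p at 3.75 Mb, had log2 fold changes of 0.21 ± 0.23 SE each, on counts that differed by at most 1 between the arms in each of the 6 libraries, so they hold 1 measurement. miR-345-5p and miR-342-3p, just outside the imprinted clusters at 38.59 and 38.39 Mb, had values of -0.09 ± 0.15 and -0.05 ± 0.21 SE. miR-342-5p, the scarcer arm of that hairpin (1.36 against 0.921 CPM), had one of -0.57 ± 0.38 SE. The libraries of all 7 overlapped between the groups.

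Of the 562 miRNAs tested, the libraries of 4 separated in opposite directions with and without HIF2α, and those of 32 in the same direction. In the comparison without HIF2α, 20.5% of all miRNAs did not overlap. How many would separate in both comparisons without any effect was not tested. The 4, named after their values were seen, were miR-758-3p, miR-494-3p, miR-361-3p and miR-3187-3p, each lower after HIF1α loss without HIF2α and higher with it. miR-758-3p of the 14q32 clusters was at 0.783, 1.43 and 1.33 CPM in HIF2α-KO and at 0.567, 0.379 and 0.574 CPM in HIF1α/HIF2α-KO libraries, and at 1.11, 1.17 and 1.82 CPM in control and 2.61, 2.30 and 2.25 CPM in HIF1α-KO cells in 1% O2. Its interaction had the lowest p of all miRNAs, -1.99 ± 0.50 SE on the log2 scale (unadjusted p = 0.00145), and an adjusted p of 0.378 in edgeR.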
